A study of Mus musculus with 24 samples.

Results

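WSB/EiJ, an inbred strain bred from wild house mice, was compared with 5 classical laboratory strains by the RNA of its retina. Its members are the 3 libraries that the labels assign to WSB/EiJ, out of 24 libraries in the series. The comparison group is the 15 libraries of 129S1/Svlmj, A/J, C57BL/6J, NOD/ShiLtJ and NZO/HlLtJ, with 3 mice in each strain. Every library is of total retinal RNA, depleted of ribosomal RNA, from wild type mice at postnatal day 28, and the labels do not give the sex. The remaining libraries are of CAST/EiJ and PWK/PhJ, which also descend from wild mice, and their values are given beside those of WSB/EiJ for some of the named genes. The study's title places these strains in work on contrast perception and on how the eye detects defocus.

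The retina turns light into nerve signals in rods and cones, passes them through bipolar, horizontal and amacrine cells to ganglion cells, and is supported by Müller glia, blood vessels and the pigment epithelium behind it. WSB/EiJ comes from the subspecies Mus musculus domesticus, from which the classical strains also descend for the most part, while CAST/EiJ and PWK/PhJ come from other subspecies. The reference genome to which all reads were aligned is that of C57BL/6J, and whether sequence differences between strains changed how many reads aligned was not tested.

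Levels are the deposited values in cpm, the reads of a gene scaled to a fixed total of reads in the library. The WSB/EiJ libraries held 66000000, 71800000 and 57600000 reads in replicates 1 to 3, and the 15 classical libraries held 59400000 to 78100000 reads with a median of 68300000, each to 3 digits as the size of 1 read in cpm gives it. A level that 3 reads would give, taken as the floor, lay between 0.0384 and 0.0521 cpm in these 18 libraries. The floor covers counting error only.

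Across the 15797 genes tested, log2 levels of the WSB/EiJ libraries correlated with one another at Pearson's r of 0.994 to 0.997, and with libraries of the classical strains at 0.969 to 0.979. These correlations are across genes within pairs of libraries, and genes are not independent replicates. With CAST/EiJ and PWK/PhJ the same coefficients were 0.962 to 0.967.

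The WSB/EiJ label was checked against Cwc22, a splicing factor gene in a segment of chromosome 2 that is known to be present in extra copies in WSB/EiJ. Its level was 686, 563 and 684 cpm in the WSB/EiJ libraries and 9.003 to 11.3 cpm in the classical ones, with a median of 10.5. No library of any other strain came near the WSB/EiJ level. Copy number was not measured here.

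Some libraries of the comparison group stood apart from their strain. Xist, the RNA of the inactive X chromosome of females, was at 962 cpm in 129S1/Svlmj replicate 3 and 906 cpm in C57BL/6J replicate 3, against 0.212, 0.167 and 0.226 cpm in WSB/EiJ. The Y-linked gene Ddx3y was at 28.5, 24.8 and 25.3 cpm in WSB/EiJ, so the 3 WSB/EiJ libraries carried the male pattern and 2 classical libraries the female one. CAST/EiJ replicate 3 and PWK/PhJ replicate 2 also carried the female pattern, with Xist at 1046 and 1081 cpm. The 21 lens genes summed to 2019 cpm in 129S1/Svlmj replicate 2, 2446 in NOD/ShiLtJ replicate 2 and 278 in C57BL/6J replicate 2, against 75.1, 17.6 and 16.9 cpm in WSB/EiJ. In these libraries lens RNA was present at levels far above the classical median of 23.7 cpm. Nnt, in which C57BL/6J is known to carry a deletion, had a mean of 4.82 cpm in C57BL/6J and 4.09 cpm in WSB/EiJ, so C57BL/6J did not stand out in these values, in a gene that shares 47.8% of its 31-base words, all runs of that length in its exons, and 47.4% of its exon bases with others.

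A gene is called set apart here when WSB/EiJ differed from each of the 5 classical strains in the same direction, with an adjusted p under 0.05 in each of the 5 comparisons. By this rule 408 genes were higher in WSB/EiJ (2.58% of those tested) and 770 were lower (4.87%). Together they were 1178 genes, 7.46% of those tested. The same rule applied to each classical strain against the other 5 strains set apart 391 genes in 129S1/Svlmj, 344 in A/J, 420 in C57BL/6J, 378 in NOD/ShiLtJ and 403 in NZO/HlLtJ. Counts of different strains were not tested against each other.

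**Figure D1:**
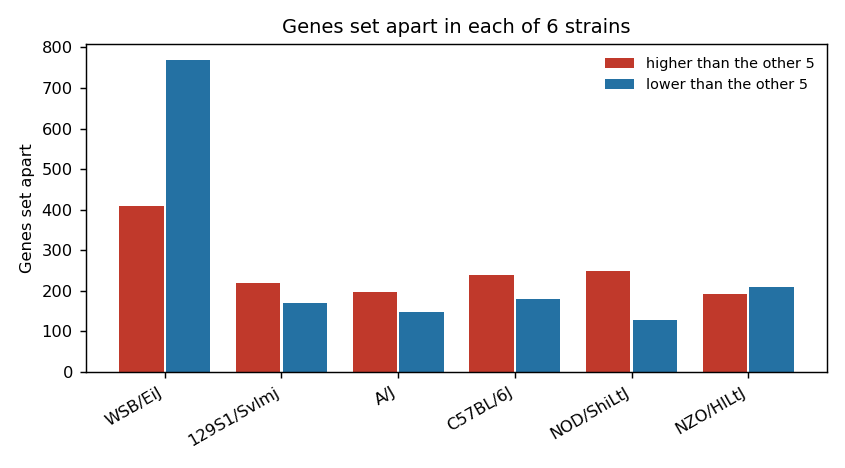
Number of genes set apart in each strain (vertical axis, genes) when it is compared with each of the other 5 strains (horizontal axis, strain), with genes higher in the strain in red and lower in blue. WSB/EiJ had 408 higher and 770 lower genes, and each classical strain had 344 to 420 in all.

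Most differences were small. The median log2 difference from the mean of the 5 classical strains was 0.50 for the higher genes and -0.43 for the lower ones, against -0.040 over all tested genes. A log2 difference of at least 1 in size was seen in 58 higher and 80 lower genes. In 383 of the 408 higher genes and 703 of the 770 lower genes the 3 WSB/EiJ libraries lay outside the range of all 15 classical ones. The rule itself favours such genes, and over all 15797 tested genes the libraries were above the range in 541 (3.42%) and below it in 1082 (6.85%).

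The lower genes outnumbered the higher ones under the deposited scaling, and the balance varied with scaling and filter. Median-ratio scaling gave 552 higher and 576 lower genes, and quantile normalization gave 569 and 546, so the directions were then nearly even. Without the filter the counts were 578 and 736, and with a filter of 5 cpm 206 and 492. The filter takes the mean of 18 libraries, 15 of them classical, so it admits genes that are low in WSB/EiJ more easily than genes that are low in the classical strains. Of the higher genes 28 had a classical mean under 0.5 cpm and of the lower genes 90 had a WSB/EiJ mean under it, and the genes with both means at 0.5 cpm or more gave 380 higher and 680 lower. Without the 2 libraries with most lens RNA the counts were 359 higher and 638 lower, and without the 2 libraries with high Xist they were 361 and 620. The p-values measure the spread between mice of 1 strain. When each strain counted once, as 1 mean against 5, the difference of WSB/EiJ from the classical mean passed an adjusted p of 0.05 in 56 higher and 79 lower genes.

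The wider contrast, WSB/EiJ minus the mean of the 5 strain means, called 2008 genes higher (12.7%) and 3753 lower (23.8%). The directions were nearly even under the other scalings here too, with 2783 and 2842 under median-ratio scaling and 2833 and 2767 under quantile normalization. Against each single strain WSB/EiJ was higher in 1523 genes (NOD/ShiLtJ) to 2209 genes (NZO/HlLtJ) and lower in 2905 (A/J) to 3310 (NOD/ShiLtJ). In a fit of all 24 libraries, 242 genes were higher (1.53%) and 389 lower (2.46%) in WSB/EiJ than in each of the 7 other strains. Of the set-apart genes, 320 higher and 624 lower ones were protein coding, out of 12492 tested. Of 957 long noncoding RNA genes 29 were higher and 51 lower, and of 1004 pseudogenes 20 were higher and 55 lower, against 2.58% and 4.87% of all tested genes.

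The largest increases in WSB/EiJ among named protein-coding genes began with Cwc22, at chr2:77881159-77946375 on the minus strand. Its mean of 644 ± 70.3 cpm (SD, n = 3) was 62.2 times the mean of 10.4 ± 0.621 cpm over the classical libraries (n = 15), a log2 difference of 5.82 ± 0.056 (SE). CAST/EiJ had a mean of 9.99 cpm and PWK/PhJ one of 8.71 cpm. The protein joins the exon junction complex to spliced RNA. Of its 31-base words 25.0% also occur in other genes.

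Polr3f encodes a subunit of RNA polymerase III, which makes transfer RNA and 5S ribosomal RNA. It was at 92.7, 97.0 and 107 cpm in WSB/EiJ and at 17.0 to 20.7 cpm in the classical libraries, with a median of 18.7. All 3 WSB/EiJ libraries were far above all 15 others, by 5.25-fold in the mean and 2.33 ± 0.045 in log2. The means of CAST/EiJ and PWK/PhJ were 28.8 and 20.2 cpm. Dzank1, its neighbour on the opposite strand and named after its values were seen, was also higher, at 77.4, 65.5 and 76.7 cpm against 23.7 to 31.6 cpm (log2 1.40 ± 0.051).

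Serpine3, of the family of serine protease inhibitors, was at 13.9, 6.53 and 7.90 cpm in WSB/EiJ and at most 0.374 cpm in the classical libraries. The gene was thus low in the classical strains and higher without overlap in each WSB/EiJ mouse (log2 3.10 ± 0.12), although 24.8% of its exon bases also belong to another gene. Draxin, a secreted protein that guides growing axons, was at 7.12, 5.05 and 5.73 cpm in WSB/EiJ and 0.162 to 0.469 cpm in the classical libraries. It was 17.6-fold higher in the mean (log2 2.37 ± 0.071), and CAST/EiJ and PWK/PhJ had means of 0.182 and 0.184 cpm.

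Lamb3, the beta 3 chain of laminin, was at 4.47, 3.90 and 3.82 cpm in WSB/EiJ against 0.0814 to 0.251 cpm (log2 2.12 ± 0.054). WSB/EiJ shared this level with CAST/EiJ, whose mean was 4.83 cpm, while PWK/PhJ was at 0.193 cpm. Crybg2, a protein with crystallin-like domains, was at 3.33, 3.58 and 3.78 cpm against 0.0395 to 0.190 cpm (log2 2.05 ± 0.044). Crybg2 is not one of the lens genes listed here. In 129S1/Svlmj replicate 2 and NOD/ShiLtJ replicate 2, the libraries richest in lens RNA, it was at 0.184 and 0.0673 cpm. Whether lens RNA had a part in its level was not tested.

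Slc29a1, a transporter of nucleosides, was at 25.3, 20.5 and 27.8 cpm in WSB/EiJ and at 2.67 to 13.0 cpm in the classical libraries (log2 2.22 ± 0.076). The classical strains were split, with a mean of 12.7 cpm in NZO/HlLtJ and lower levels in the other strains, and no classical library reached WSB/EiJ. CAST/EiJ and PWK/PhJ, at 21.3 and 24.9 cpm, were close to it. Lrrc8e, a subunit of channels that open when cells swell, was at 5.53, 4.80 and 4.86 cpm against 0.0489 to 1.98 cpm (log2 1.85 ± 0.049).

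Scube3, a secreted and membrane-bound protein of the epidermal growth factor-like type, was at 7.40, 6.91 and 5.71 cpm in WSB/EiJ against 0.690 to 2.21 cpm (log2 1.76 ± 0.10). Trf, transferrin, which carries iron, was at 84.4, 49.3 and 59.3 cpm against 6.21 to 25.9 cpm (log2 1.91 ± 0.22). WSB/EiJ replicate 1 was the highest for Trf, and all 3 WSB/EiJ libraries were above the classical ones. Since 63.5% of the exon bases of Trf overlap another gene, the Trf level is uncertain. The summed pigment epithelium genes, listed further on, were likewise highest in WSB/EiJ replicate 1, at 114 cpm. In A/J both Trf and that sum were highest in replicate 3. In NOD/ShiLtJ the sum was highest in replicate 1 and Trf in replicate 3, and a link was not tested. All 10 of these higher genes had 3 WSB/EiJ libraries above all 15 classical ones, and 8 were higher than in all 7 other strains. They were picked for their large differences, which favours both outcomes. Over all tested genes the shares were 3.42% and 1.53%. The largest adjusted p-value of these 10 genes over the 5 comparisons was 0.000517, for Trf.

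**Figure D2:**
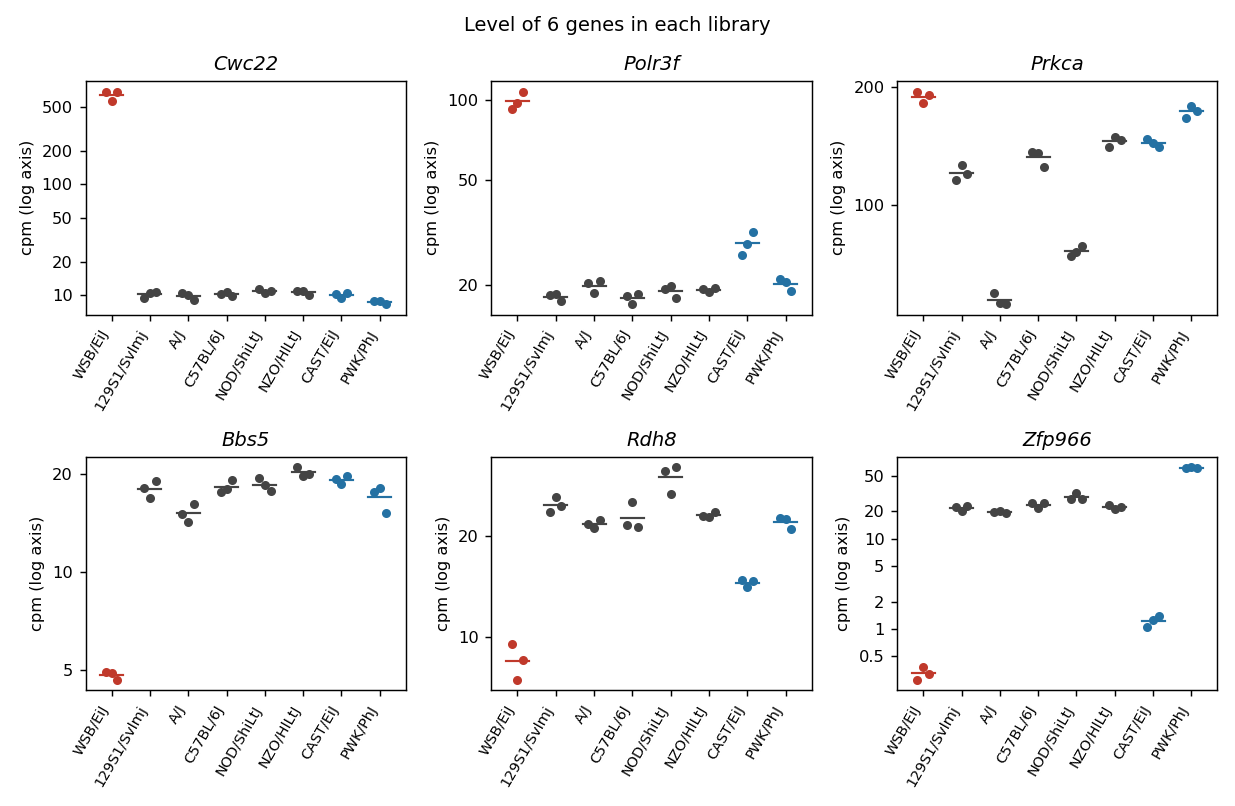
Level in cpm (vertical log axis) of 6 genes in each library, with strains along the horizontal axis. Points are single mice, short lines are means of 3, WSB/EiJ is red, classical strains are grey, and CAST/EiJ and PWK/PhJ are blue. WSB/EiJ lies above all classical libraries for Cwc22, Polr3f and Prkca and below all of them for Bbs5, Rdh8 and Zfp966.

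Some genes outside the naming rule were chosen after their values were seen. Prss56, a serine protease of Müller glia whose loss is known to shorten the eye, was at 6.64, 2.83 and 5.78 cpm in WSB/EiJ and 0.503 to 1.84 cpm in the classical libraries. All 3 WSB/EiJ mice were higher than all 15 classical mice (log2 1.65 ± 0.14), and the means of CAST/EiJ and PWK/PhJ were 3.03 and 2.58 cpm. Neat1, the RNA scaffold of nuclear paraspeckles, was at 62.2, 73.4 and 62.9 cpm against 16.8 to 23.4 cpm (log2 1.76 ± 0.071). Cdh23, a cadherin of hair cells and photoreceptors, was at 5.06, 2.51 and 4.24 cpm against 0.384 to 1.30 cpm (log2 1.41 ± 0.12). The ranges of WSB/EiJ and the classical strains did not meet for either gene, and for Cdh23 the means of CAST/EiJ and PWK/PhJ were 2.89 and 2.24 cpm.

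Cckbr, a receptor for cholecystokinin, was at 5.06, 5.68 and 5.54 cpm in WSB/EiJ against 0.591 to 2.07 cpm (log2 1.53 ± 0.071). Its ligand Cck, a peptide of amacrine cells, moved the other way, at 0.743, 0.794 and 1.04 cpm against 1.57 to 2.70 cpm (log2 -0.65 ± 0.066), and it was lower still in the means of CAST/EiJ and PWK/PhJ, 0.122 and 0.331 cpm. Receptor and ligand thus differed from the classical strains in opposite directions, without overlap in either. Tnfsf13b, a survival factor for B cells, was at 2.83, 2.28 and 2.78 cpm against 0.140 to 0.511 cpm (log2 1.42 ± 0.065).

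The largest decreases in WSB/EiJ were those of zinc finger genes, most of them in 1 cluster described further on. Outside that cluster, Zfp738 at chr13:67658685-67687071, a zinc finger gene with a repressor domain, was at 0.863, 1.08 and 0.834 cpm in WSB/EiJ and 25.4 to 39.1 cpm in the classical libraries. WSB/EiJ was 33.1-fold lower in the mean (log2 -4.02 ± 0.041), while CAST/EiJ and PWK/PhJ had means of 35.1 and 23.3 cpm. Of its 31-base words 24.1% occur in other genes.

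Bbs5 encodes a member of the BBSome, the complex that carries membrane proteins in and out of cilia such as the photoreceptor outer segment. At chr2:69647171-69667571 it was at 4.94, 4.90 and 4.67 cpm in WSB/EiJ and 14.3 to 20.99 cpm in the classical libraries, with a median of 18.1. The 3 WSB/EiJ mice were nearly alike and all below the lowest classical mouse, 3.73-fold in the mean and -1.70 ± 0.044 in log2. CAST/EiJ and PWK/PhJ, at 19.2 and 17.0 cpm, were inside the classical range. Only 4.68% of the gene's 31-base words occur elsewhere.

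Cdcp3 was at 1.80, 1.60 and 2.45 cpm in WSB/EiJ and varied widely among the classical libraries, from 5.33 to 54.3 cpm (log2 -2.99 ± 0.16). Stag3, a cohesin subunit of meiosis, was at 0.879, 1.34 and 0.903 cpm against 6.01 to 11.5 cpm (log2 -2.10 ± 0.068). The low level of Stag3 was not particular to WSB/EiJ, since CAST/EiJ and PWK/PhJ had means of 0.395 and 0.723 cpm.

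Gapdh, an enzyme of glycolysis often used as a reference gene, was at 13.8, 10.2 and 12.6 cpm in WSB/EiJ and 76.2 to 101 cpm in the classical libraries. The gene was 7.22-fold lower in WSB/EiJ (log2 -2.76 ± 0.073), and the means of CAST/EiJ and PWK/PhJ, 18.5 and 14.1 cpm, were also below all 15 classical libraries. Gapdh shares 28.1% of its 31-base words with other genes, so part of its reads can be assigned elsewhere, and its level is uncertain.

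The ribosomal protein genes Rps2 and Rps3a1 were low as well, and they share 48.8% and 76.9% of their 31-base words with other genes. Rps2 was at 1.02, 0.748 and 0.574 cpm in WSB/EiJ against 6.69 to 19.1 cpm (log2 -2.67 ± 0.099), with means of 1.03 cpm in CAST/EiJ and 5.79 cpm in PWK/PhJ. Rps3a1 was at 0.105, 0.295 and 0.101 cpm in WSB/EiJ, 0.671 and 0.655 cpm in the means of 129S1/Svlmj and A/J, and 15.4 and 15.7 cpm in those of NOD/ShiLtJ and NZO/HlLtJ, with C57BL/6J close to them. Rps3a1 thus had a low group of strains and a high one, and WSB/EiJ was below the low group (log2 -2.49 ± 0.063). All 10 named lower genes had the 3 WSB/EiJ libraries below all 15 classical ones, and 7 were lower than in all 7 other strains. They were likewise picked for their large differences, and over all tested genes the shares were 6.85% and 2.46%. The largest adjusted p-value of these 10 genes over the 5 comparisons was 0.000103, for Rps3a1.

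Among lower genes chosen after their values were seen, Ly6c1, a surface protein of vessel and blood cells, was listed at 0.0001 cpm, the authors' zero, in all 3 WSB/EiJ libraries and at 1.18 to 2.16 cpm in the classical ones. Against the highest floor of a WSB/EiJ library this is at least 32.7-fold lower, in a gene that shares 46.8% of its 31-base words with others. Apobec2, a relative of RNA and DNA editing enzymes, was at or under the floor in all 3 WSB/EiJ libraries and at 0.748 to 3.37 cpm in the classical ones. CAST/EiJ and PWK/PhJ, with means of 9.09 and 4.23 cpm, were above every classical library. Postn, a matrix protein, was at 0.652, 0.474 and 0.521 cpm in WSB/EiJ against 1.69 to 7.43 cpm (log2 -1.54 ± 0.069).

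Lists of genes for cell types and processes were then counted against the whole. Over all genes 2.58% were set apart as higher and 4.87% as lower, and the median log2 difference was -0.040. The contrast with the classical mean, also cited for some lists, called 12.7% higher and 23.8% lower over all genes. In a bulk sample, fewer cells of a type and less RNA per cell cannot be told apart. Of 23 lists, 10 held no set-apart gene in limma. At an unadjusted p under 0.05 in each of the 5 comparisons, these 10 held 1 higher gene of the pigment epithelium list, 2 lower genes of the circadian list and 1 lower gene of the list from the study, and none in the other lists.

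Rod phototransduction changed in 1 of 20 tested genes, with a median log2 difference of 0.068, and in 2 under both other scalings. The gene was Gnb5, whose protein helps to shut off the light response, at 164, 139 and 160 cpm in WSB/EiJ against 99.6 to 127 cpm (log2 0.44 ± 0.041). All 3 WSB/EiJ libraries were above all 15 classical ones. Against the classical mean 6 of the 20 genes were higher and 3 lower, where 12.7% of all genes were higher and 23.8% lower.

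Cone phototransduction had 2 higher genes and 1 lower gene among 9, with a median of 0.21. In the contrast with the classical mean 5 were higher and 1 lower, where 12.7% of all genes were higher and 23.8% lower. Opn1sw, the short-wavelength cone opsin, was at 158, 140 and 141 cpm in WSB/EiJ and 90.6 to 129 cpm in the classical libraries (log2 0.45 ± 0.060). It shares 14.0% of its 31-base words with other genes. Cngb3, a subunit of the cone channel, was at 13.4, 14.3 and 15.4 cpm against 9.70 to 12.9 cpm (log2 0.30 ± 0.043). Both were higher in all 3 WSB/EiJ mice than in any classical mouse, though Cngb3 was higher still in CAST/EiJ and PWK/PhJ, with means of 15.5 and 26.9 cpm. Pde6h, the inhibitory subunit of cone phosphodiesterase, was lower, at 11.6, 9.02 and 9.22 cpm against 12.5 to 35.9 cpm (log2 -0.92 ± 0.062).

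Among the cone genes the classical strains themselves differed. Pde6h had means of 12.9 cpm in NOD/ShiLtJ and 14.0 in A/J, and 32.6 in C57BL/6J, so WSB/EiJ lay just under the low strains. Opn1sw was not set apart without WSB/EiJ replicate 1, A/J replicate 1 or A/J replicate 2, where its largest adjusted p was 0.122, 0.103 and 0.0610. Cngb3 was not set apart without WSB/EiJ replicate 2 or 3 or C57BL/6J replicate 3, where it was 0.0517, 0.151 and 0.0922, nor with Xist as a covariate or without both libraries with high Xist.

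Photoreceptor disc and retinoid genes had 1 higher and 2 lower members among 13, with a median of -0.045. Rdh8, the main retinol dehydrogenase of the outer segment, which reduces the retinal that light releases, was at 9.47, 7.44 and 8.54 cpm in WSB/EiJ and 21.1 to 32.0 cpm in the classical libraries. It was 2.88-fold lower in WSB/EiJ, without overlap (log2 -1.42 ± 0.062), and CAST/EiJ had a mean of 14.5 cpm while the mean of PWK/PhJ lay inside the classical range. Impg2, a proteoglycan of the matrix between photoreceptors, was higher, at 310, 283 and 306 cpm against 163 to 279 cpm (log2 0.63 ± 0.032).

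WSB/EiJ, CAST/EiJ and PWK/PhJ were alike for Impg2, with means of 300, 316 and 310 cpm, and 129S1/Svlmj, at 273 cpm, was close to them while the other classical means were 167 to 182 cpm. Rdh12, a retinol dehydrogenase of the inner segment, was at 80.5, 64.6 and 73.0 cpm in WSB/EiJ against 80.0 to 99.5 cpm, so that 1 WSB/EiJ library lay inside the classical range (log2 -0.31 ± 0.049). Its call was lost without WSB/EiJ replicate 2 or 3 or C57BL/6J replicate 1 or 3, with a largest adjusted p of 0.0564 to 0.154, and also under both other scalings and without both libraries with high Xist. Impg2 lost its call without WSB/EiJ replicate 1 or 3 or 129S1/Svlmj replicate 2, with 0.0660 to 0.0747, and also with lens RNA as a covariate and without both libraries richest in lens RNA.

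The bipolar cell list had 1 higher and 1 lower gene among 18, with a median of 0.0058, and 3 higher and no lower genes under both other scalings. Against the classical mean 7 were higher and 2 lower, where 12.7% of all genes were higher and 23.8% lower. Prkca, the kinase that marks rod bipolar cells, was at 194, 182 and 190 cpm in WSB/EiJ and 56.0 to 149 cpm in the classical libraries, with a median of 120. It was above every classical mouse, by 1.77-fold in the mean (log2 0.90 ± 0.037), and above the means of CAST/EiJ and PWK/PhJ, 144 and 173 cpm. The 18 genes together summed to 1098, 978 and 1077 cpm in WSB/EiJ and 816 to 973 cpm in the classical libraries. Prkca is included in this sum, which therefore does not show a difference of the other bipolar genes. Scgn, a calcium sensor of cone bipolar cells, was at 10.5, 9.72 and 11.4 cpm against 11.4 to 16.1 cpm (log2 -0.36 ± 0.049). Its call was lost without WSB/EiJ replicate 1 or 2 or A/J replicate 1 or 3, with a largest adjusted p of 0.0580 to 0.131, and also under both other scalings.

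Horizontal cell genes were not set apart in any of 5 tested members, with a median of 0.15. The list of 6 genes summed to 153, 159 and 152 cpm in WSB/EiJ against 120 to 145 cpm in the classical libraries, without overlap, and 3 of the 5 genes were higher in the contrast with the classical mean, against 12.7% of all genes. Ganglion cell genes had none of 17 set apart, with a median of -0.050, and their sum of 337 to 373 cpm in WSB/EiJ lay inside the classical range of 323 to 426 cpm.

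Amacrine cell genes had 1 higher and 1 lower member among 18, with a median of -0.077. In the contrast with the classical mean 2 were higher and 7 lower, where 12.7% of all genes were higher and 23.8% lower. The lower set-apart gene was Cck, described above. The higher one was Gad1, which makes the transmitter GABA, at 74.2, 72.9 and 72.5 cpm in WSB/EiJ against 52.2 to 67.0 cpm (log2 0.27 ± 0.035). Gad1 was not set apart without any one of the 3 WSB/EiJ or the 3 129S1/Svlmj libraries, with a largest adjusted p of 0.0509 to 0.0791, nor without both libraries richest in lens RNA or both libraries with high Xist.

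Müller glia genes had 2 lower members among 17 and none higher, with a median of -0.19, and 1 lower member under both other scalings. In the contrast with the classical mean 8 were lower and 1 higher, where 23.8% of all genes were lower and 12.7% higher. The list summed to 1226, 1161 and 1166 cpm in WSB/EiJ and to 1269 to 1612 cpm in the classical libraries, so all 3 WSB/EiJ sums were below all 15. The lower genes Abca8a and Dkk3 are included in this sum, which therefore does not show a difference of the other Müller glia genes. Abca8a, a lipid transporter, was at 53.95, 60.4 and 58.1 cpm against 67.4 to 76.3 cpm (log2 -0.30 ± 0.040). Dkk3, a secreted modulator of Wnt signals, was at 157, 134 and 144 cpm against 157 to 220 cpm, narrowly below all 15 (log2 -0.36 ± 0.069). Dkk3 lost its call without WSB/EiJ replicate 2 or 3, A/J replicate 3 or NOD/ShiLtJ replicate 2, with a largest adjusted p of 0.0658 to 0.160. It also lost it under both other scalings, without the filter, with lens RNA as a covariate, without the strain NZO/HlLtJ, without both libraries richest in lens RNA and without both libraries with high Xist.

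Lists of vessel, immune, glial and blood cells follow, to be read against 2.58% higher and 4.87% lower over all genes. In the endothelium and pericyte list 1 of 16 genes was higher, Vwf, the clotting factor of vessel walls, at 2.73, 3.45 and 2.90 cpm against 0.439 to 2.65 cpm (log2 0.97 ± 0.10), and the median was -0.096. Against the classical mean 2 of these 16 genes were higher and 5 lower, where 12.7% of all genes were higher and 23.8% lower. No microglia gene of 9 was set apart (median -0.021), nor any of 3 astrocyte and optic nerve glia genes (median -0.34) or of 4 blood genes (median -0.48). The astrocyte and optic nerve glia list stood apart in 2 classical libraries. It summed to 66.8 cpm in NOD/ShiLtJ replicate 3 and 40.4 cpm in NZO/HlLtJ replicate 1. The classical median was 22.9 cpm, and the WSB/EiJ sums were 17.4 to 19.3 cpm.

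The pigment epithelium and melanin list had none of 11 genes set apart, or 1 higher under quantile normalization, and a median of 0.38, with 4 genes higher and none lower against the classical mean, where 12.7% of all genes were higher. Its 14 genes summed to 114, 70.4 and 76.4 cpm in WSB/EiJ and 21.5 to 98.8 cpm in the classical libraries, so WSB/EiJ replicate 1 was above all of them and the others were inside their range. Its most abundant gene was Rgr. None of the 21 lens genes was set apart, with a median of -0.64 that became -0.11 without the 2 libraries of highest lens sums. Whether tissue next to the retina had a part in the differences of other genes was not tested, beyond 2 alternatives for lens RNA. These were the counts given without those libraries, and lens RNA as a covariate, which set apart 390 higher and 693 lower genes.

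Genes of antigen presentation had 3 higher members and none lower among 13, with a median of 0.093, where 2.58% of all genes were higher and 4.87% lower. Against the classical mean 4 were higher and 3 lower, where 12.7% of all genes were higher and 23.8% lower. The 3 set-apart genes are class I molecules of the major histocompatibility complex, which show peptides to T cells. H2-K1 was at 6.23, 7.38 and 6.04 cpm in WSB/EiJ against 0.762 to 4.18 cpm (log2 1.11 ± 0.064), and H2-D1 at 11.2, 12.1 and 12.5 cpm against 3.88 to 8.17 cpm (log2 0.93 ± 0.079). H2-Q4 was at 1.63, 1.81 and 1.66 cpm against 0.295 to 0.893 cpm (log2 0.77 ± 0.052). Each was higher in all 3 WSB/EiJ mice than in any classical mouse and than the means of CAST/EiJ, 1.21, 1.39 and 0.453 cpm, and of PWK/PhJ, 3.25, 4.52 and 0.739 cpm. The genes differ in sequence between strains and share 22.8%, 26.9% and 53.0% of their 31-base words with other genes, so their levels are uncertain.

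The interferon response list held no higher gene and 1 lower gene among 13, with a median of -0.17. Against the classical mean 2 were higher and 7 lower, where 12.7% of all genes were higher and 23.8% lower. The set-apart gene was Parp14, an enzyme that attaches ADP-ribose, at 0.803, 1.13 and 0.972 cpm in WSB/EiJ against 1.40 to 2.93 cpm (log2 -0.59 ± 0.058). Immediate early genes had 1 lower member of 13, Ier5, at 2.99, 2.44 and 3.11 cpm against 3.79 to 5.48 cpm (log2 -0.56 ± 0.071), and a median of -0.15. None of the 24 circadian clock genes was set apart, and their median was -0.013.

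Glycolysis and lactate transport had 3 lower members among 21 and none higher, with a median of -0.26, and 13 genes were lower against the classical mean, as were 23.8% of all genes. Beside Gapdh these were Ldha, which converts pyruvate to lactate, and Aldoa, an aldolase. Ldha was at 132, 105 and 124 cpm in WSB/EiJ against 145 to 204 cpm, below all 15 (log2 -0.58 ± 0.058). Aldoa was at 350, 261 and 291 cpm against 320 to 444 cpm, with overlap (log2 -0.38 ± 0.067). Ldha and Aldoa share 19.6% and 17.0% of their 31-base words with other genes, so their levels are uncertain too. The call for Aldoa was lost without WSB/EiJ replicate 2 or 3, 129S1/Svlmj replicate 2 or 3 or A/J replicate 3, with a largest adjusted p of 0.0581 to 0.131, and also without both libraries richest in lens RNA and without both libraries with high Xist. The median of the list was -0.22 under both other scalings, and 4 genes were lower under quantile normalization.

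Glutathione and redox genes had 3 lower members among 28 and none higher, with a median of -0.12, where 4.87% of all genes were lower and 2.58% higher. Against the classical mean 11 were lower and none higher, where 23.8% of all genes were lower and 12.7% higher. Gstt1, a glutathione transferase, was at 1.61, 1.06 and 1.15 cpm in WSB/EiJ against 1.93 to 3.29 cpm (log2 -0.61 ± 0.086). Gclc, the catalytic subunit that starts glutathione synthesis, was at 9.75, 10.03 and 9.63 cpm against 10.98 to 14.1 cpm (log2 -0.31 ± 0.045). Both were below the whole classical range, and Gclc lost its call without WSB/EiJ replicate 3 or NZO/HlLtJ replicate 1, with a largest adjusted p of 0.0552 and 0.0908, and also without both libraries with high Xist.

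Gstp1, another transferase, was at 9.41, 6.89 and 7.85 cpm in WSB/EiJ against 8.88 to 12.7 cpm, with overlap (log2 -0.36 ± 0.080). Gstp1 shares 38.5% of its 31-base words with other genes, so its level is uncertain. It lost its call without WSB/EiJ replicate 2 or 3, 129S1/Svlmj replicate 2, C57BL/6J replicate 2 or NZO/HlLtJ replicate 1 or 2, with a largest adjusted p of 0.0551 to 0.165, and also without the filter, without the strain A/J and without both libraries richest in lens RNA.

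In the list of exon junction complex and RNA decay genes, Cwc22 was the only one of 16 set apart, and the median was -0.046. None of the 13 mitochondrially encoded genes was set apart (median -0.24). None of the 22 genes that the study discusses was set apart (median -0.012), and since that list was chosen from these libraries its count is not independent evidence. The medians of the photoreceptor disc, circadian clock and study lists changed sign under both other scalings, and that of microglia under quantile normalization.

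Set-apart genes were also followed along the chromosomes. On the autosomes their share ran from 5.05% of tested genes on chromosome 11 to 9.81% on chromosome 10. Joined where each lay within 1 Mb of the next, they formed 260 runs of 2 or more, with 309 genes left alone, and 4 runs held 10 or more.

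The run with most set-apart genes, 25, lay at chr2:175191065-177957297, a cluster of zinc finger genes of the type that represses mobile elements. Of 36 tested genes in it, 21 were lower and 4 higher in WSB/EiJ, and the median log2 difference was -1.03. All 21 lower genes were below all 15 classical libraries, and 15 were lower than in all 7 other strains. The rule that picked these genes favours both outcomes. Over all tested genes 6.85% were below all 15 libraries and 2.46% lower than in all 7 strains. The 21 genes together summed to 33.4, 42.9 and 34.8 cpm in WSB/EiJ and to 208 to 260 cpm in the classical libraries. CAST/EiJ sums were 94.8 to 108 cpm and PWK/PhJ sums 354 to 376 cpm, and because the 21 genes were picked as lower in WSB/EiJ, its lower sum than in the classical strains follows from the choice. The 15 other genes of the run summed to 103 to 128 cpm in WSB/EiJ, 71.5 to 94.0 cpm in the 12 libraries of 4 classical strains, and 123 to 131 cpm in NOD/ShiLtJ. These 15 include the 4 genes picked as higher and none picked as lower. The choice thus favours a higher sum in WSB/EiJ, which is not independent evidence either.

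**Figure D3:**
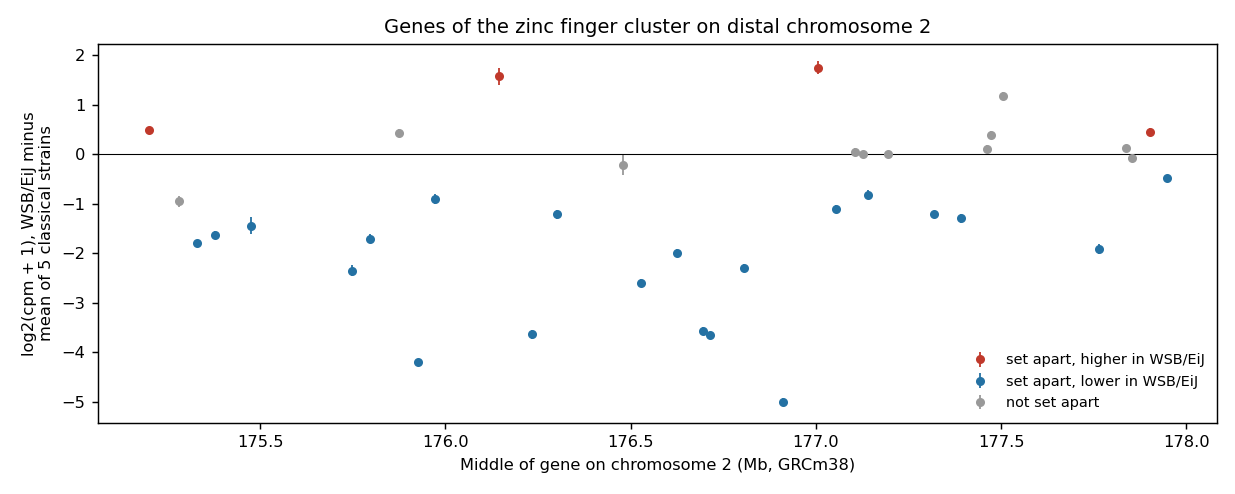
Difference between WSB/EiJ and the mean of the 5 classical strains in log2(cpm + 1) (vertical axis) for the 36 tested genes of the zinc finger cluster, at the middle of each gene on chromosome 2 (horizontal axis, Mb, GRCm38). Bars are standard errors, and colours mark set-apart genes, 21 lower and 4 higher.

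Zfp966, at chr2:175918881-175931100, was at 0.272, 0.381 and 0.317 cpm in WSB/EiJ and 19.0 to 32.3 cpm in the classical libraries, with a median of 22.3. It was 72.3-fold lower in the mean (log2 -4.19 ± 0.054), with 1.22 cpm in CAST/EiJ and 61.1 cpm in PWK/PhJ. Zfp973 was at 0.0949, 0.150 and 0.114 cpm in WSB/EiJ against 8.51 to 15.2 cpm (log2 -3.57 ± 0.074), and Zfp967 at 0.0835, 0.132 and 0.0696 cpm against 4.01 to 9.89 cpm (log2 -2.60 ± 0.079).

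Other genes of the cluster are named after their values were seen. Gm14296 had the largest difference of all set-apart genes of the run, at 0.235, 0.0322 and 0.00604 cpm in WSB/EiJ, of which 2 are under the floor, against 30.1 to 39.8 cpm (log2 -5.01 ± 0.072). In the other direction Gm2004 was at 4.03, 5.78 and 4.71 cpm against 0.0682 to 2.66 cpm (log2 1.57 ± 0.17), a call that was lost with a pseudocount of 0.1, and Gm14419 at 6.17, 7.61 and 6.59 cpm against 0.475 to 3.06 cpm (log2 1.74 ± 0.13). Gm14391, at the edge of the run, was at 24.8, 29.5 and 27.9 cpm against 16.8 to 22.2 cpm (log2 0.48 ± 0.049).

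Genes of this cluster are near copies of one another. Between 36.0% and 100% of the 31-base words of each gene occur in other genes, with a median of 93.4%, and 35 of 36 genes share at least 50%. The levels of single members are therefore uncertain, and the strand on which reads were counted is not stated. Over all 36 genes the sum was 137, 171 and 145 cpm in WSB/EiJ and 281 to 383 cpm in the classical libraries. This total does not depend on how reads were divided among these genes. It includes the 21 genes picked as lower, and the run was itself picked for its set-apart genes. The lower total therefore follows from the choice and is not independent evidence.

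Promoters of 3 lower and 2 higher genes of the cluster are shown, because its genes are near copies that can be compared letter by letter. Sequences are from RefSeq on GRCm38.p6, from 250 bases before to 50 after each gene's start in RefSeq, and 24 of the 36 genes had an entry. The promoters of Zfp966 at chr2:175931051-175931350 (minus strand) and Zfp967 at chr2:176520754-176521053 (plus strand) are identical over all 300 bases, so the first stands for both. Zfp973 is at chr2:176670272-176670571 (plus strand), Gm2004 at chr2:176153373-176153672 (minus strand) and Gm14391 at chr2:175206875-175207174 (minus strand). The stretch of Gm2004 lies upstream of the position given with its level, chr2:176141591-176149825. Capitals mark CTTCCGG, or CTTCCAG in Gm14391, both searched on both strands and chosen after the sequences were seen.
Zfp966: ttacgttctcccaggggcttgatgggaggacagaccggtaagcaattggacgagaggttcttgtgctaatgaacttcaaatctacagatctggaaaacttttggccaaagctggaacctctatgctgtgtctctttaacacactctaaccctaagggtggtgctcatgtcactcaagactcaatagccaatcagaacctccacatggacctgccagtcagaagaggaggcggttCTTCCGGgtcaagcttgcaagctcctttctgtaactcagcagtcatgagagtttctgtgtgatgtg
Zfp973: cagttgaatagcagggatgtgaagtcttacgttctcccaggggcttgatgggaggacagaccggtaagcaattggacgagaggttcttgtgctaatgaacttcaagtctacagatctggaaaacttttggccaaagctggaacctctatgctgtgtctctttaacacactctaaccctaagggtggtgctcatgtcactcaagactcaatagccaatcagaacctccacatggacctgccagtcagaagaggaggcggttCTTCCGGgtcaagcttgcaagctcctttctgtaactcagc
Gm2004: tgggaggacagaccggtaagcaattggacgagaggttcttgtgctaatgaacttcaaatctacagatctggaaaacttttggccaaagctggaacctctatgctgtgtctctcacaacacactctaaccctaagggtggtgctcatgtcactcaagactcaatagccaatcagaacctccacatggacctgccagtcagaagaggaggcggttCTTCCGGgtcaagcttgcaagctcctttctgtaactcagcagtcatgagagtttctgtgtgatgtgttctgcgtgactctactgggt
Gm14391: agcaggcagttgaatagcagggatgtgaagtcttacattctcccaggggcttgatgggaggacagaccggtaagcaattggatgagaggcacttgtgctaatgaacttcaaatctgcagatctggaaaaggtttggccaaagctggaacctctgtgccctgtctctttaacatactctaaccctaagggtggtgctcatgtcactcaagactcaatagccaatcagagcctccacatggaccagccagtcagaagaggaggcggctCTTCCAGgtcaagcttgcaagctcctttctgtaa

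CTTCCGG and CTTCCAG both hold the core letters that ETS factors are known to bind, so the 2 motifs do not differ in that core. CTTCCGG was found in 7 of the 24 promoters. They belong to 6 of the 15 lower genes with an entry (Zfp968, Zfp965, Zfp966, Zfp967, Zfp973 and Gm14295), to 1 of 2 higher genes (Gm2004) and to none of 7 genes not set apart. CTTCCAG was found in 16 promoters, those of 8 lower genes, of Gm14391 and of all 7 genes not set apart. Over all 32817 promoters of the table the first motif occurs in 8.86% and the second in 9.05%. A match is a description of letters in the reference genome of C57BL/6J, and no WSB/EiJ sequence was read.

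The run with the next highest number, at chr17:31520115-35838306, covers the major histocompatibility complex and held 20 set-apart genes of 116 tested, 10 higher and 10 lower. Beside H2-K1, H2-D1 and H2-Q4 its genes were chosen after their values were seen. Gpsm3, a modulator of G proteins, was at 4.63 to 5.45 cpm in WSB/EiJ against 1.44 to 3.06 cpm (log2 1.06 ± 0.065). Hspa1b, an inducible heat shock protein, was at 20.1, 20.6 and 30.7 cpm against 4.87 to 17.0 cpm (log2 1.32 ± 0.11). It lost its call without WSB/EiJ replicate 3 or NOD/ShiLtJ replicate 2, with a largest adjusted p of 0.111 and 0.0518, and also without both libraries richest in lens RNA, and it shares 68.1% of its 31-base words.

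Lower genes of the same run included 3 neighbours of the Cyp4f family of fatty acid hydroxylases. Cyp4f16 was at 0.0697 to 0.152 cpm in WSB/EiJ against 1.13 to 2.57 cpm (log2 -1.36 ± 0.063), Cyp4f17 at 1.60 to 1.83 cpm against 2.99 to 4.14 cpm (log2 -0.73 ± 0.060), and the pseudogene Cyp4f41-ps at 0.0759 to 0.104 cpm against 0.578 to 2.25 cpm (log2 -0.996 ± 0.059). All 3 were below every classical library. Cyp4f13 was not set apart, at 3.26 to 4.09 cpm in WSB/EiJ and 0.486 to 9.61 cpm in the classical libraries (log2 -0.18 ± 0.084). Tubb5, a beta tubulin, was at 61.9 to 77.0 cpm in WSB/EiJ against 84.7 to 110 cpm (log2 -0.49 ± 0.060).

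Promoters of H2-K1 at chr17:34000298-34000597 (minus strand) and H2-D1 at chr17:35262844-35263143 (plus strand) are shown because both genes were higher in WSB/EiJ. The first is 1 of 2 entries for its gene. The stretch of H2-D1 lies inside the position given with its level, which begins at chr17:35262730. Capitals mark GGGATTCCCC, the letters of enhancer A known from mouse class I genes, searched on both strands and chosen after the sequences were seen. It occurs in 0.0853% of all promoters of the table, 28 in number. The longest stretch that both sequences share is 47 bases.
H2-K1: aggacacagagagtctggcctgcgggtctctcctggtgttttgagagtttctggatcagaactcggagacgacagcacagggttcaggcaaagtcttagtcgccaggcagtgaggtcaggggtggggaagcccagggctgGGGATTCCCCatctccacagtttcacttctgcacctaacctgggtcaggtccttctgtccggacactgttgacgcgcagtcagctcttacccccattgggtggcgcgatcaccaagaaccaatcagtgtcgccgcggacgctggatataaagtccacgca
H2-D1: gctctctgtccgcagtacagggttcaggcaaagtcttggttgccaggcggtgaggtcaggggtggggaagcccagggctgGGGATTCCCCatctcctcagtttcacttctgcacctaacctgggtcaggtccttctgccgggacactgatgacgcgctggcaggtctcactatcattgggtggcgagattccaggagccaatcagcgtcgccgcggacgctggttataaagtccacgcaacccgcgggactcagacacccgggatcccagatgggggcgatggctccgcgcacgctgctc

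The remaining runs of this size lay at chr19:6998958-9899551, with 12 set-apart genes of 57 tested (4 higher, 8 lower), and at chr12:83213745-87273998, with 12 of 69 (5 higher, 7 lower). In the first, chosen after its values were seen, Plaat3, a phospholipase, was at 4.39 to 5.17 cpm in WSB/EiJ against 8.52 to 12.3 cpm (log2 -0.87 ± 0.058). In the second, Dpf3, a subunit of a chromatin remodelling complex, was at 20.2 to 23.3 cpm against 36.0 to 47.7 cpm (log2 -0.95 ± 0.047). Both genes were below every classical library.

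Shared sequence was counted for all set-apart genes. At least 10% of the 31-base words occurred elsewhere in 117 of the 408 higher genes (28.7%) and 233 of the 770 lower genes (30.3%), against 26.2% of all tested genes. Exons of another gene covered at least 10% of the bases in 17.4% of higher, 12.6% of lower and 14.3% of all tested genes. Among the 20 genes named first, 3 of the higher and 7 of the lower ones passed the limit of 10% for 31-base words.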

How the data were processed

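The deposited values are cpm, which the authors obtained by aligning reads to GRCm38/mm10 with STAR, assigning them to genes with the Partek E/M model, dividing by the total reads of each library and adding 0.0001. The methods name RefSeq, while the biotypes of the table are of an Ensembl type, and the strand of counting is not stated. Of 28802 genes, the 15797 outside chromosomes X and Y with a mean of at least 0.5 cpm over the 18 libraries were tested as log2(cpm + 1). A level of 0.5 cpm stands for between 28.8 and 39.1 reads, whose counting error is 16.0% to 18.6%.

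limma 3.58.1 (R 4.3.3, eBayes with trend, two-sided, Benjamini-Hochberg adjusted over all genes in each contrast) was fitted with 1 coefficient per strain. A log2 difference is WSB/EiJ minus the mean of the 5 strain means, with its standard error. Folds are ratios of mean cpm. Members and lists were chosen with earlier results of these data known.

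Genes named are the 10 set-apart protein-coding genes with the largest difference in each direction, without symbols such as Gm or Rik (1 higher and 10 lower ones were passed over), up to 4 set-apart genes of each list, label checks (Cwc22, Nnt, Xist, Y-linked genes) and the runs with most set-apart genes. Lists cover retinal cell types, phototransduction, photoreceptor discs and retinoids, vessels, pigment epithelium, lens, blood, circadian clock, immediate early genes, antigen presentation, interferon response, glycolysis, glutathione, exon junction complex, mitochondrial genes and genes the study discusses. Shared 31-base words and exons were counted on GENCODE M21.

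Alternatives were median-ratio scaling, pseudocount 0.1, no filter, a stricter filter of 5 cpm, quantile normalization, an adjusted p under 0.01, Storey q-values, all 24 libraries for the spread, Xist or lens covariates, other units of replication, and leaving out each library or strain. Set tests were left out.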

Additional observations from a re-analysis of the deposited data

How the results depend on the processing

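With a mean of at least 5 cpm 8965 genes were tested, and WSB/EiJ was set apart as higher in 206 and lower in 492. The contrast with the classical mean then called 1176 higher and 2393 lower, and 373 genes were apart from all 7 other strains, fewer because fewer genes were tested. At an adjusted p under 0.01, by its construction stricter, 266 genes were higher and 444 lower, 2497 were lower than the classical mean, and 378 were apart from all 7. With the 15 classical libraries as 1 group, 838 genes were higher and 1843 lower than in that group. With strain as a random effect these were 261 and 428, and with strain means as the unit 56 and 79, where 597 and 1258 had an unadjusted p under 0.05. These last fits take differences between classical strains as error.

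Leaving out single libraries gave 321 to 415 higher and 541 to 805 lower set-apart genes, 1447 to 2143 higher and 2651 to 4014 lower in the contrast with the classical mean, and 474 to 672 apart from all 7. Each lowest count was without WSB/EiJ replicate 3, and the cause was not tested. Every other alternative kept these 5 counts within 1.5 times their value. Of the 1178 set-apart genes, 980 remained with the same direction under median-ratio scaling and 948 under quantile normalization, and 838 without WSB/EiJ replicate 3. Among the 35 alternatives that keep the rule for set-apart genes, all 20 genes named first kept their call wherever they were tested, but 7 of them fell under the filter of 5 cpm. The fits with other units were not read for single genes.

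Alternatives chosen after seeing the data were leaving out both libraries richest in lens RNA (359 higher, 638 lower), leaving out both with high Xist (361 and 620), and all alternatives for the counts apart from all 7, for the classical strains, for named genes and for lists. The paper states that a randomized complete block design was used to pool libraries for sequencing. No paired or blocked analysis was possible, because the labels give no block and link no mouse of one strain to a mouse of another. With 3 WSB/EiJ mice, small differences of single genes can be missed, and low levels rest on few reads.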

Other observations

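Pseudogenes, chosen after their values were seen, included some of the largest increases in WSB/EiJ. Gm11425 was at 11.6, 11.1 and 10.7 cpm in WSB/EiJ and at most 0.0362 cpm in the classical libraries, which is under the floor, and PWK/PhJ had a mean of 8.21 cpm. Gm6210 was at 6.85 cpm or more in each WSB/EiJ library and at 0.295 cpm or less in each classical one. They share 98.3% and 74.6% of their 31-base words with other genes. Amd2, a gene of polyamine synthesis that shares 90.9%, was at 31.1, 28.4 and 28.5 cpm in WSB/EiJ against 6.51 to 15.2 cpm, with means of 37.7 cpm in both CAST/EiJ and PWK/PhJ. Klkb1, plasma kallikrein, was at 0.327, 0.312 and 0.211 cpm against 1.58 to 3.99 cpm, with means of 0.0704 cpm in CAST/EiJ and 0.0303 cpm in PWK/PhJ, and 43.2% of its exon bases overlap another gene.

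The X chromosome was left out by the rule for tested genes, and 2 classical libraries had high Xist. Of the 526 X-linked genes that reach the limit of 0.5 cpm, WSB/EiJ was above all 15 classical libraries in 13 and below all of them in 41, while of the genes tested it was above in 3.42% and below in 6.85%.

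None of the 15 tested genes of mitochondrial DNA was set apart. Of 33 small nucleolar RNA genes 4 were lower in WSB/EiJ and none higher, where 4.87% of all genes were lower and 2.58% higher, and of 1264 genes of the annotation class TEC, for transcripts awaiting experimental proof, 38 were higher and 34 lower.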
